A study of Homo sapiens with 6 samples.

Results

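The genes of cholesterol and fatty acid synthesis, of their regulators and of lipoprotein handling were compared between astrocytes of 2 regional characters made from H1, an established line of human embryonic stem cells. The set held 37 genes of 27439 genes with reads, listed by function but chosen with earlier results of these data known. All 37 passed the low-count filter that left 15984 genes to test. They are 6 enzymes of the mevalonate pathway, 10 enzymes that turn its product into cholesterol, 6 sterol sensors, regulators and carriers, 8 enzymes of fatty acid synthesis, 5 lipoprotein, receptor and efflux genes and the 2 liver X receptors. The tested cells, labelled VM iAst, carry a ventral midbrain character, and the cells they were set against, Control iAst, are labelled as forebrain. Each group had 3 libraries, numbered 2, 3 and 4 in both groups. All 6 came from the H1 line, no treatment separates the groups in the labels beyond the regional character, and a field for cell type names the stem cells where the source field names astrocytes. The labels do not tie the libraries to separate cultures. The p-values therefore measure only how these samples spread, and that spread may be technical.

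Cholesterol in the brain is made locally, since lipoproteins of the blood do not cross the blood-brain barrier, and astrocytes are a main producer. Acetyl-CoA is turned into farnesyl diphosphate by the mevalonate pathway, then into squalene, lanosterol and, through demethylation and reduction steps, cholesterol. The transcription factors SREBP-1 and SREBP-2 drive these genes and those of fatty acid synthesis when sterols in the endoplasmic reticulum run low, because SCAP then carries them to the Golgi for cleavage, whereas INSIG proteins hold SCAP back when sterols are plentiful. The liver X receptors sense oxysterols and switch on efflux genes such as ABCA1 and ABCG1, which load cholesterol onto particles carrying APOE and clusterin.

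RNA was measured with libraries that read the 3′ end of polyadenylated transcripts, at 11617935 to 15391082 estimated reads per library. Levels are CPM, the reads of a gene scaled to a common library size. Mitochondrially encoded genes took 9.94% to 12.6% of reads in VM iAst and 10.2% to 11.9% in Control iAst libraries. Of 16 astrocyte markers 14 were measured well enough to test, while GJB6 and HEPACAM, a gap junction and an adhesion gene of mature astrocytes, had no read. Of the 14, edgeR called 4 higher in VM iAst (AQP4, SLC1A3, NFIA and MLC1; adjusted p = 0.0045 to 0.048) and 0 lower. With the replicate block the same 4 were higher and 3 were lower (GJA1, SOX9 and CD44). Fold changes were positive for 9 and negative for 5 of the 14. What part the astrocyte marker changes have in the results below was not tested. The 12 neuron markers summed to 718 to 1193 CPM in VM iAst and 1284 to 2027 CPM in Control iAst libraries, and the 10 mesenchymal markers to 720.0 to 923 CPM and 1175 to 1826 CPM in the same order. Single genes carried much of both sums, as seen when the highest gene of each list was left out, a step chosen after seeing the data. Without STMN2 the neuron markers summed to 499 to 623 CPM in VM iAst and 561 to 644 CPM in Control iAst libraries, and without COL1A1 the mesenchymal markers to 485 to 612 CPM in VM iAst and 504 to 844 CPM in Control iAst libraries, so both overlapped. Fold changes were positive for 4 and negative for 7 tested neuron markers, with STMN2, DCX, NEFM and NEFL lower in VM iAst without overlap. They were positive for 4 and negative for 6 mesenchymal markers. POSTN, LUM and DCN (the last 2 at most 3.69 CPM) were higher in VM iAst without overlap, and COL1A1, COL1A2, COL3A1, PRRX1 and TWIST1 lower. edgeR called 0 neuron markers, and 3 mesenchymal markers lower (COL1A1, COL3A1 and PRRX1; adjusted p = 0.0037 to 0.038) and 0 higher. With the replicate block 0 neuron markers rose and 5 fell, and 1 mesenchymal marker rose and 4 fell. Over all tested genes edgeR called 2.15%, and 8.13% with the block. The 12 markers of proliferating cells summed to 1373, 4870 and 1228 CPM in VM iAst replicates 2, 3 and 4. In Control iAst replicates 2, 3 and 4 they summed to 939, 3362 and 895 CPM. The libraries numbered 3 were thus highest in both groups, and the VM iAst sum was the higher in each same-numbered pair. Fold changes of these 12 were positive for 11 and negative for 1. Without the block edgeR called 0 of them, and with it 4 were higher and 0 lower. All 6 microglia markers stayed under 1 CPM in every library. In bulk RNA, fewer cells of a type and less RNA per cell cannot be told apart.

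None of the 37 genes passed the test between VM iAst and Control iAst. At a Benjamini-Hochberg adjusted p under 0.05, edgeR's quasi-likelihood test called 0 members higher and 0 lower, while it called 2.15% of all tested genes, 1.06% higher and 1.09% lower. The smallest adjusted p of a member was 0.065, for NSDHL. At an unadjusted p under 0.05 there were 4 members (NSDHL, FADS2, ABCA1 and CLU), or 10.8%, against 12% of all tested genes, while DESeq2 called 1 member, NSDHL (4.2% of all genes it tested), and limma voom 0 (2.1% of all tested genes). Fold changes were positive for 14 members and negative for 23, with a median log2 fold change of -0.10 against 0.01 over all tested genes. The median absolute log2 fold change was 0.20 for the members and 0.25 over all tested genes. For 29 of the 37 (78.4%) the 95% interval of the fold change lay within 2-fold in either direction, which held for 53.7% of all tested genes. The members were read at higher levels, with a mean log2 CPM per library of 5.73 to 5.91 against 3.82 to 3.88 over all tested genes. Genes of like level were not compared, so the absolute fold changes and interval shares do not show that the members were steadier than other genes.

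Same-numbered libraries deviated together, and with the replicate number as a block in the model 3 members passed. NSDHL and ABCA1 rose and CLU fell in VM iAst libraries in that fit, which is 8.11% of the members, against 8.13% of all tested genes, 3.63% higher and 4.5% lower. That share is at the background. Libraries of the 2 groups did not overlap for 5 members that were higher and 1 that was lower, or 16.2%, against 17.9% of all tested genes, 9.17% higher and 8.75% lower. All 3 same-numbered pairs had the same sign for 15 members (40.5%), against 41.5% of all tested genes. The 5 members higher without overlap were NSDHL, FADS2, ELOVL5, ABCA1 and ABCG1, and the 1 lower was NR1H3.

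**Figure D1:**
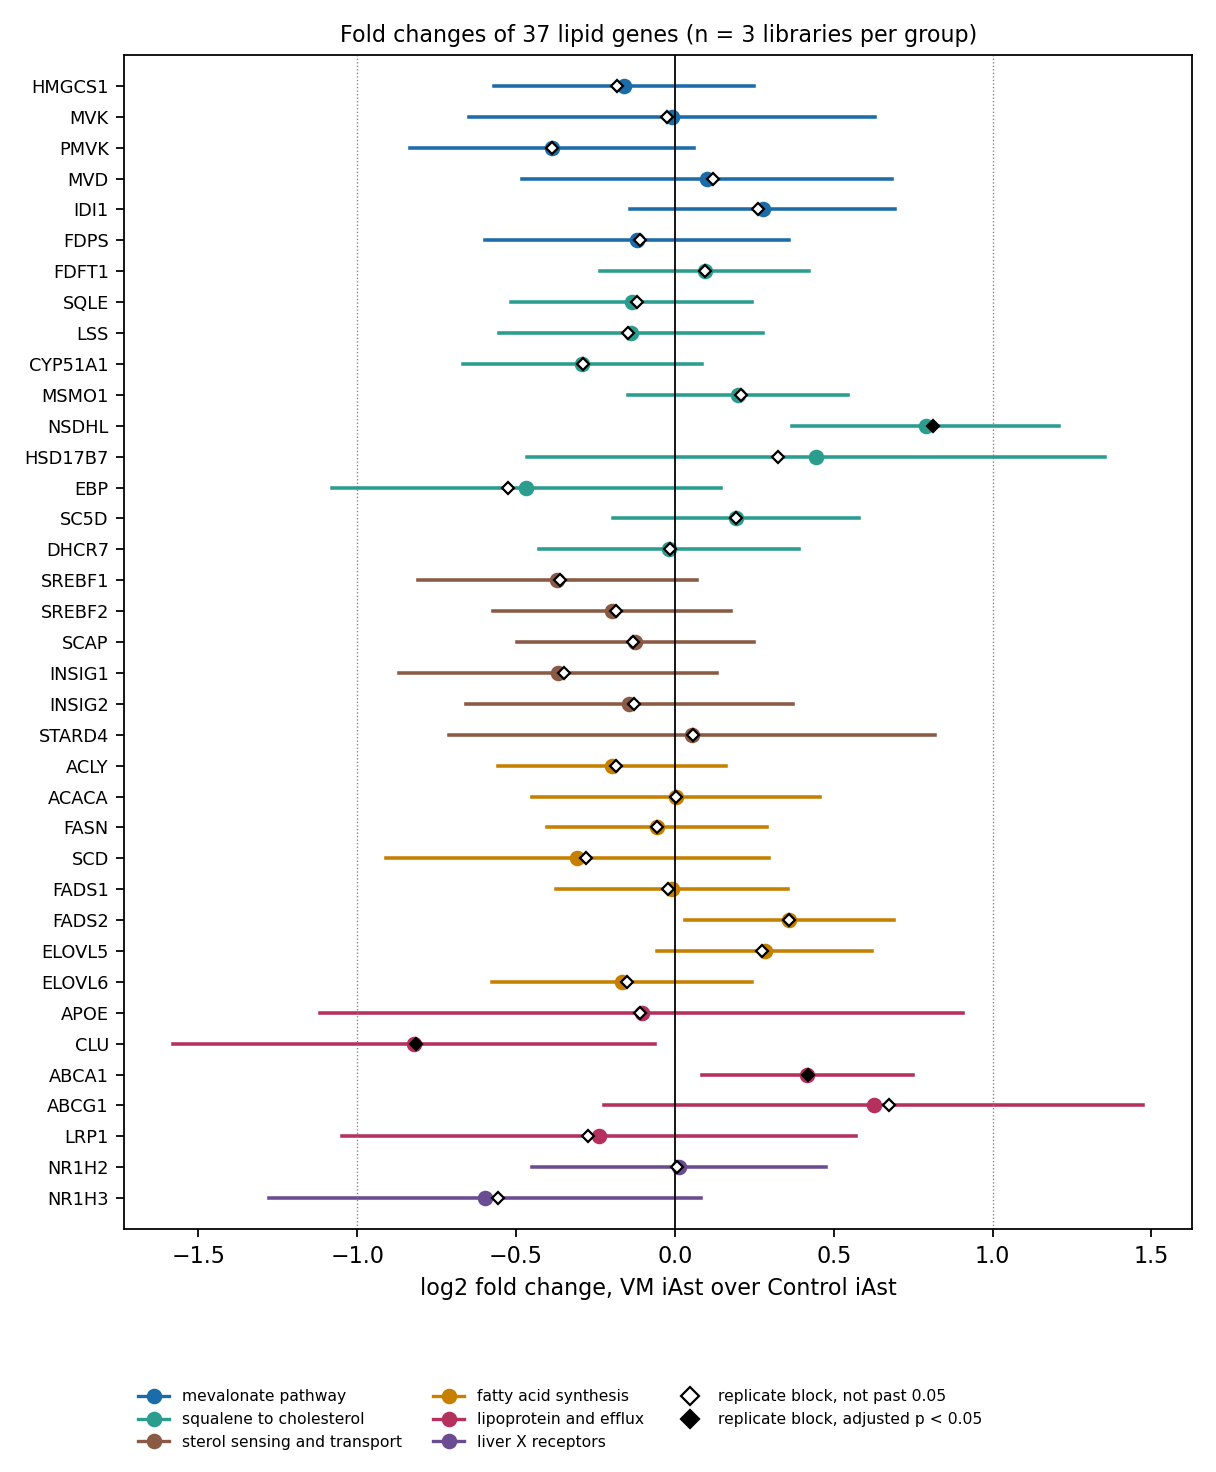
Log2 fold change of each of the 37 genes, VM iAst over Control iAst (horizontal axis), with its 95% interval from edgeR (circles and lines, 3 libraries per group, coloured by role group) and the estimate with the replicate number as a block (diamonds, filled where its adjusted p is under 0.05). All 37 circles lie between the dotted lines that mark 2-fold, and the filled diamonds are NSDHL at 0.81, CLU at -0.81 and ABCA1 at 0.42.

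Enzymes of the mevalonate pathway showed no call. Their fold changes were positive for 2 and negative for 4 of 6, with a median of -0.06 on the log2 scale, and every one of the 6 intervals lay within 2-fold. HMGCS1, the enzyme that condenses acetyl units into the precursor of mevalonate, was at 123, 173 and 112 CPM in VM iAst replicates 2, 3 and 4 and at 149, 167 and 139.9 CPM in Control iAst replicates 2, 3 and 4. The groups overlapped, and the log2 fold change was -0.16 ± 0.18 (SE; edgeR adjusted p = 0.84). PMVK, the kinase of phosphomevalonate, had the smallest p of the arm, at 20.6, 16.9 and 16.3 CPM in VM iAst and 20.1, 23.9 and 26.4 CPM in Control iAst libraries. In VM iAst 2 of its libraries lay under the lowest Control iAst library, and the third, replicate 2, did not (log2 fold change -0.39 ± 0.20, SE; edgeR adjusted p = 0.51). IDI1, the isomerase of the isoprene units, was at 54.7, 75.4 and 49.6 CPM in VM iAst and 44.3, 48.3 and 55.7 CPM in Control iAst libraries (log2 fold change 0.28 ± 0.19, SE; edgeR adjusted p = 0.65). Of the others, the kinase MVK averaged 15.6 ± 5.20 CPM in VM iAst and 15.7 ± 4.20 CPM in Control iAst libraries (SD, n = 3 each), and MMAB, on the opposite strand, overlaps the gene. The decarboxylase MVD averaged 14.3 ± 2.73 CPM in VM iAst and 13.3 ± 3.60 CPM in Control iAst libraries (SD, n = 3 each), and its log2 fold change of 0.10 turned to -0.55 with a gene-length offset. FDPS, which makes farnesyl diphosphate, averaged 65.8 ± 14.5 CPM in VM iAst and 71.4 ± 18.5 CPM in Control iAst libraries (SD, n = 3 each).

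Among the 10 enzymes from squalene to cholesterol, NSDHL had the smallest p, and fold changes were positive for 5 and negative for 5. NSDHL, a sterol dehydrogenase that takes part in removing the methyl groups at carbon 4 of the ring system (chromosome X, 152830967 to 152869729, GRCh38), was at 57.5, 64.9 and 60.0 CPM in VM iAst replicates 2, 3 and 4 and at 41.2, 38.2 and 26.1 CPM in Control iAst replicates 2, 3 and 4. Each VM iAst library was above all 3 Control iAst libraries, and Control iAst replicate 4 was the lowest. The mean was 60.8 ± 3.76 CPM in VM iAst and 35.2 ± 8.001 CPM in Control iAst libraries (SD, n = 3 each), with a log2 fold change of 0.79 ± 0.19 (SE; 95% interval 0.37 to 1.21; edgeR adjusted p = 0.065). DESeq2 gave an adjusted p of 0.021, and edgeR with the replicate block gave 0.0046. With 1 replicate number left out of the blocked fit, NSDHL kept an edgeR adjusted p of 0.0052 to 0.04997, the highest without number 4. Without Control iAst replicate 4 the unblocked log2 fold change was 0.61 (edgeR adjusted p = 0.20).

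The enzymes next to NSDHL on the route passed neither fit. MSMO1, the oxidase that acts just before it, was at 94.8, 100.1 and 98.8 CPM in VM iAst and 84.3, 99.4 and 72.4 CPM in Control iAst libraries (log2 fold change 0.20 ± 0.16, SE; edgeR adjusted p = 0.72). HSD17B7, the reductase that acts just after it, was at 6.89, 10.3 and 21.7 CPM in VM iAst and 9.44, 7.19 and 11.9 CPM in Control iAst libraries. Its pseudogene HSD17B7P2 took 96.0% as many reads as HSD17B7, so the division of reads between this pair is uncertain. CYP51A1, the lanosterol demethylase, was at 121, 157 and 130.0 CPM in VM iAst and 141, 167 and 192 CPM in Control iAst libraries (log2 fold change -0.29 ± 0.17, SE; edgeR adjusted p = 0.58). EBP, the isomerase that moves the ring double bond, was at 13.8, 30.4 and 19.4 CPM in VM iAst and 25.2, 34.1 and 28.7 CPM in Control iAst libraries, lower in VM iAst in each of the 3 same-numbered pairs (log2 fold change -0.47 ± 0.28, SE; edgeR adjusted p = 0.58). The groups overlapped for all of these 4. The other 5, namely FDFT1 and SQLE, which make squalene and its epoxide, the cyclase LSS, and SC5D and DHCR7 of the last steps, had log2 fold changes between -0.14 and 0.19, and no adjusted p under 0.76. Summed over the 16 enzymes of both arms, the level was 871, 1030 and 861 CPM in VM iAst replicates 2, 3 and 4 and 900.3, 960 and 930 CPM in Control iAst replicates 2, 3 and 4, so that the Control iAst sums lay inside the range of the VM iAst sums.

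The promoter of NSDHL is printed here because NSDHL had the smallest p of the set. It covers 250 bases before to 50 bases after the RefSeq gene start, at chrX:152830813-152831112 on the plus strand of GRCh38.p14. Capitals mark the CCAAT box, searched as CCAAT on both strands, where the reverse strand reads ATTGG. This box binds NF-Y, a factor known to work beside SREBP at sterol genes.
NSDHL: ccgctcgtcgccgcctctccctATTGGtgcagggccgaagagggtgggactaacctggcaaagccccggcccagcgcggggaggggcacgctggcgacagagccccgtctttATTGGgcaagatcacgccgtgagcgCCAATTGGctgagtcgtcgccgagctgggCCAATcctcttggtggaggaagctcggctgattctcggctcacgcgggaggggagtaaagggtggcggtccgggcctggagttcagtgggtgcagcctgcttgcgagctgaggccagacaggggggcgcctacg
The NSDHL window held 5 such matches, of which 2 on opposite strands overlap. RefSeq promoters of this length were found for 32 of the 37 members, and 18 of these (56.3%) held a CCAAT match, against 36.4% of 15842 promoters of protein-coding genes. HMGCS1, MSMO1 and EBP were among the 18, with log2 fold changes of -0.16, 0.20 and -0.47, whose intervals all included 0. A link between the box and the fold changes was not tested.

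The sterol sensors and regulators showed no call. Of 6 fold changes 5 were negative, with a median of -0.17 on the log2 scale. All 6 intervals lay within 2-fold and included 0. The 3 same-numbered pairs had the same sign for 1 of the 6 (16.7%), against 41.5% of all tested genes. SREBF1, which encodes SREBP-1, was at 17.0, 19.3 and 16.9 CPM in VM iAst and 24.0, 25.6 and 19.2 CPM in Control iAst libraries. The highest VM iAst library was just above the lowest Control iAst library, and the others did not overlap (log2 fold change -0.37 ± 0.20, SE; edgeR adjusted p = 0.53), and RAI1, on the opposite strand, overlaps the gene. INSIG1, itself a target of SREBP and a common readout of its activity, was at 21.8, 29.2 and 24.5 CPM in VM iAst and 30.3, 24.8 and 42.2 CPM in Control iAst libraries, with Control iAst replicate 4 the highest (log2 fold change -0.37 ± 0.23, SE; edgeR adjusted p = 0.60). SREBF2, which encodes SREBP-2, was at 59.2, 64.1 and 70.3 CPM in VM iAst and 81.9, 58.9 and 81.1 CPM in Control iAst libraries (log2 fold change -0.20 ± 0.17, SE; edgeR adjusted p = 0.75). SCAP, the escort of both factors, was at 89.5, 77.7 and 108 CPM in VM iAst and 111, 101 and 87.9 CPM in Control iAst libraries. INSIG2, the second INSIG protein, had a log2 fold change of -0.14 ± 0.23 (SE). STARD4, a cytosolic sterol carrier, averaged 5.45 ± 1.13 CPM in VM iAst and 5.25 ± 1.24 CPM in Control iAst libraries (SD, n = 3 each), and its log2 fold change of 0.05 turned to -0.25 with a gene-length offset. In these last 4 genes the groups overlapped.

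The SREBF2 promoter is shown because it was the single one of the 32 that held a match to the core of the sterol regulatory element, searched as TCACNCCAC on both strands, which 1.17% of the protein-coding promoters held. It lies at chr22:41832855-41833154, plus strand of GRCh38.p14, and capitals mark the element, 133 to 125 bases before the gene start, and a CCAAT match after it.
SREBF2: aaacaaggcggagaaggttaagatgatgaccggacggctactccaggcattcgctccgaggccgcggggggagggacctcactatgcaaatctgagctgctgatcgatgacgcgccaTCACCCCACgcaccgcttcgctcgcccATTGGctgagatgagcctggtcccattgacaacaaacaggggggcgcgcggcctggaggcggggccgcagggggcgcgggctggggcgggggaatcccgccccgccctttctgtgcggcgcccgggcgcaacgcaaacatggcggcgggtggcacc
For the other 31 promoters the search says only that these letters are not in the window, and sterol regulatory elements are known to vary in sequence.

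Fatty acid synthesis genes had fold changes of both signs, 3 positive and 5 negative, with a median of -0.03 on the log2 scale and all 8 intervals within 2-fold. FADS2, the delta-6 desaturase that starts the making of long polyunsaturated fatty acids (chromosome 11, 61792980 to 61867354, GRCh38), was at 156, 168 and 189 CPM in VM iAst replicates 2, 3 and 4 and at 135, 143 and 121 CPM in Control iAst replicates 2, 3 and 4. Every VM iAst library was above every Control iAst library (log2 fold change 0.36 ± 0.15, SE; 95% interval 0.03 to 0.69; edgeR adjusted p = 0.35, blocked 0.11). ELOVL5, which elongates the products of FADS2, was likewise without overlap, at 66.9, 88.4 and 74.6 CPM in VM iAst and 61.7, 65.0 and 62.2 CPM in Control iAst libraries (log2 fold change 0.28 ± 0.15, SE; edgeR adjusted p = 0.53). FADS1, the delta-5 desaturase of the same route, averaged 265 ± 44.9 CPM in VM iAst and 267 ± 17.96 CPM in Control iAst libraries (SD, n = 3 each), with a log2 fold change of -0.01. FADS1 and FADS2 overlap on opposite strands, and FEN1 lies within FADS2 on its strand, so reads in the shared stretch are uncertain.

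SCD, the desaturase that makes oleate, was at 215, 307 and 345 CPM in VM iAst and 290.1, 275 and 508 CPM in Control iAst libraries, with Control iAst replicate 4 well above the other 5 libraries. Its log2 fold change was -0.31 ± 0.27 (SE; edgeR adjusted p = 0.75), and in the blocked fit without number 3 it was -0.49 (edgeR adjusted p = 0.033), while without Control iAst replicate 4 the unblocked value was 0.03. ACLY, which supplies acetyl-CoA from citrate, was at 118, 126 and 113 CPM in VM iAst and 119, 127 and 164 CPM in Control iAst libraries (log2 fold change -0.20 ± 0.16, SE; edgeR adjusted p = 0.73). ACACA and FASN, the carboxylase and the synthase at the core of the pathway, had log2 fold changes of 0.00 ± 0.20 and -0.06 ± 0.16 (SE), and the elongase ELOVL6 one of -0.17 ± 0.19 (SE). The 95% intervals of these 3 ran from -0.58 at the lowest to 0.46 at the highest.

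**Figure D2:**
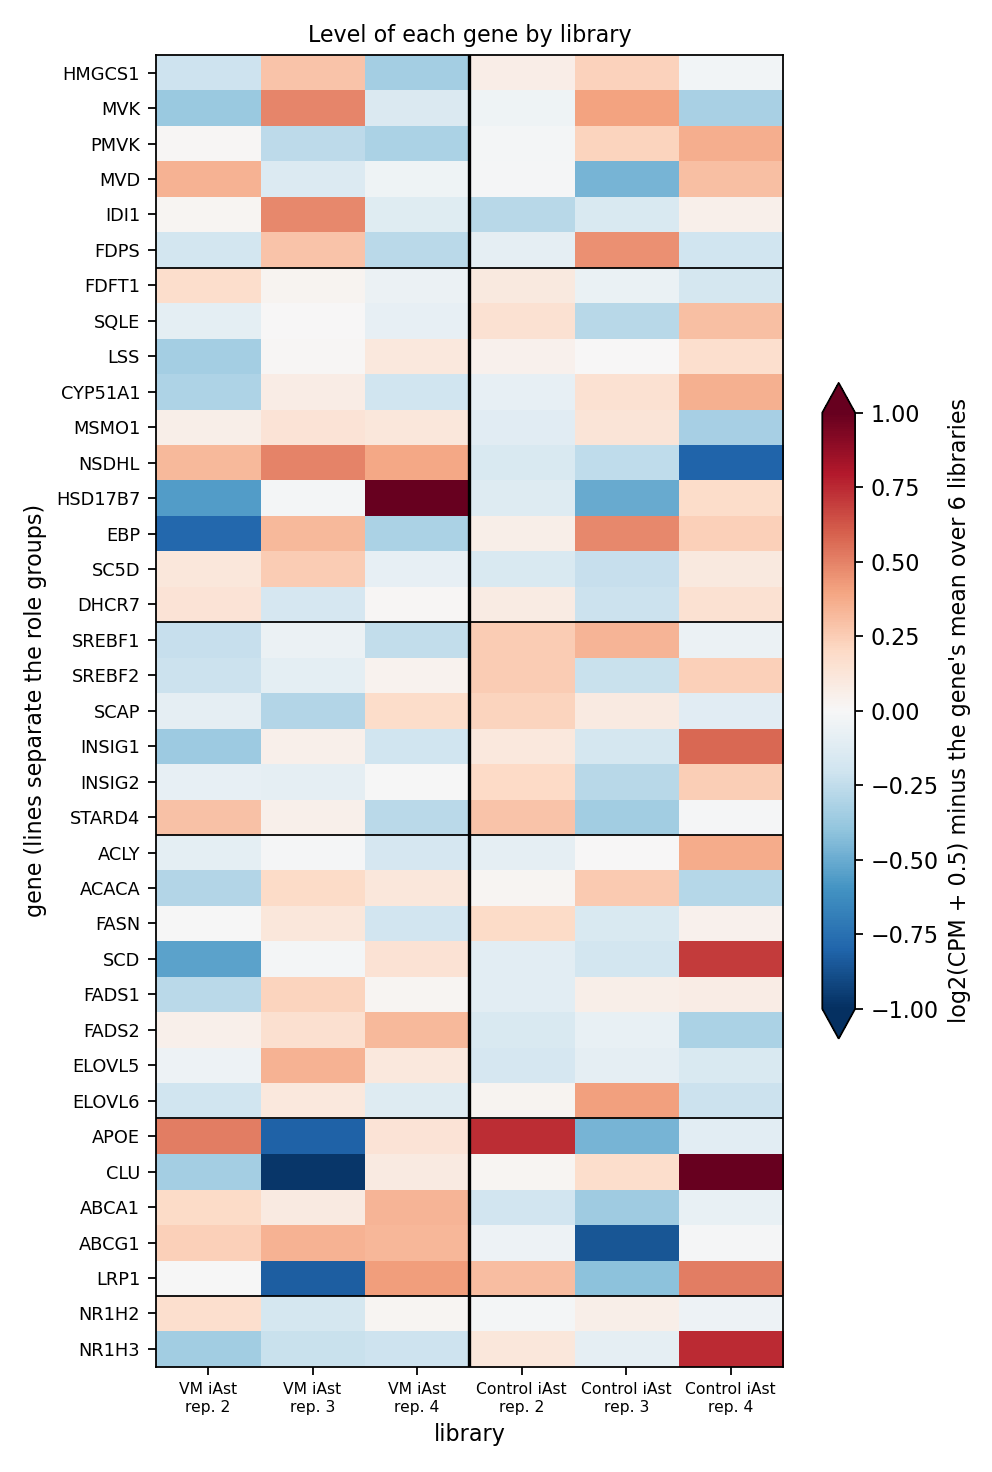
Level of each of the 37 genes (rows, in role groups) in each library (columns, VM iAst left of Control iAst), as log2(CPM + 0.5) minus the mean of the gene over the 6 libraries, with colours saturating at 1 in either direction. NSDHL, FADS2, ELOVL5, ABCA1 and ABCG1 are above their mean in nearly every VM iAst column, and APOE, CLU and LRP1 are low in the VM iAst column of replicate 3.

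Of the 5 lipoprotein, receptor and efflux genes 1, ABCA1, had an interval within 2-fold. That share, 20%, was the lowest of any role group. CLU, which encodes clusterin (apolipoprotein J), a secreted chaperone of brain lipoproteins (chromosome 8, 27596917 to 27615031, GRCh38), was at 7244, 4665 and 9734 CPM in VM iAst replicates 2, 3 and 4 and at 9268, 10315 and 18652 CPM in Control iAst replicates 2, 3 and 4. It took 0.482% to 1.02% of the reads of a VM iAst library and 0.879% to 1.75% of those of a Control iAst library. VM iAst replicate 4 lay above Control iAst replicate 2, so the groups overlapped, but VM iAst was lower in each of the 3 same-numbered pairs, with differences of -0.36, -1.14 and -0.94 on the log2(CPM + 0.5) scale. The mean was 7214 ± 2534 CPM in VM iAst and 12745 ± 5142 CPM in Control iAst libraries (SD, n = 3 each), with a log2 fold change of -0.82 ± 0.33 (SE; 95% interval -1.58 to -0.06; edgeR adjusted p = 0.36). In the blocked fit it was -0.81 ± 0.14 (SE; edgeR adjusted p = 0.0028), a call lost without number 4 (edgeR adjusted p = 0.075) and not made by DESeq2 with the block (adjusted p = 0.14). Without Control iAst replicate 4 the unblocked log2 fold change was -0.44. In the summed neuron and mesenchymal markers, unlike in CLU, every VM iAst library lay below every Control iAst library. This did not hold without STMN2 and COL1A1. The part of these markers in the CLU values was not tested.

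ABCA1, the transporter that loads cholesterol and phospholipid onto lipoproteins (chromosome 9, 104781002 to 104928237, GRCh38), was at 132, 123 and 146 CPM in VM iAst replicates 2, 3 and 4 and at 101, 89.9 and 109.6 CPM in Control iAst replicates 2, 3 and 4. Each VM iAst library was above each Control iAst library, and the differences of same-numbered libraries were alike, 0.39, 0.45 and 0.41 on the log2(CPM + 0.5) scale. The log2 fold change was 0.42 ± 0.15 (SE; 95% interval 0.09 to 0.75; edgeR adjusted p = 0.25), and the blocked fit gave 0.42 ± 0.11 (SE; edgeR adjusted p = 0.038). The blocked call was also made by DESeq2 (adjusted p = 0.036), and it was lost with any 1 number left out (edgeR adjusted p = 0.12 to 0.19). ABCG1, which passes cholesterol on to lipidated particles, was without overlap as well, at 5.14, 5.57 and 5.51 CPM in VM iAst and 4.10, 2.14 and 4.24 CPM in Control iAst libraries. It had 25 to 79 reads per library, and its log2 fold change was 0.63 ± 0.38 (SE; 95% interval -0.22 to 1.47; edgeR adjusted p = 0.60).

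The ABCA1 promoter is shown because a repeat bound by liver X receptors is known close to its start. The repeat was searched on both strands as TGACC and ACCT with 7 bases of any kind between them, a form relaxed so that it takes the known ABCA1 element, and capitals mark it 69 to 54 bases before the gene start. The match in ABCA1 was thus fixed by the choice of letters. The form was found in 0.252% of the protein-coding promoters and in none of the other 31 members' windows, and no promoter of this table was matched for ABCG1. The window is chr9:104928106-104928405, minus strand of GRCh38.p14.
ABCA1: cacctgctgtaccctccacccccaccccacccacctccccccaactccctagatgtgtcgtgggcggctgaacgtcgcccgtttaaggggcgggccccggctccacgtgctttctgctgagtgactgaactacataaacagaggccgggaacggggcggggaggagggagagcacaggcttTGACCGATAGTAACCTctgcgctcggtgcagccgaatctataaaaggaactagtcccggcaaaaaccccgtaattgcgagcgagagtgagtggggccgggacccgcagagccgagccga

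APOE, the main apolipoprotein of astrocytes, was at 637, 256 and 491 CPM in VM iAst replicates 2, 3 and 4 and at 746, 324 and 417 CPM in Control iAst replicates 2, 3 and 4. Replicate 3 was the lowest library and replicate 2 the highest in both groups. The log2 fold change was -0.10 ± 0.42 (SE; 95% interval -1.12 to 0.91; edgeR adjusted p = 0.97), an interval that reaches about 2-fold either way, and with the replicate block the SE was 0.13. LRP1, a large receptor that takes up APOE particles, was at 294, 166 and 395 CPM in VM iAst and 365, 222 and 421 CPM in Control iAst libraries, again lowest in replicate 3 of both groups. VM iAst was lower in each of its 3 same-numbered pairs (log2 fold change -0.24 ± 0.35, SE; edgeR adjusted p = 0.89, blocked 0.19).

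**Figure D3:**
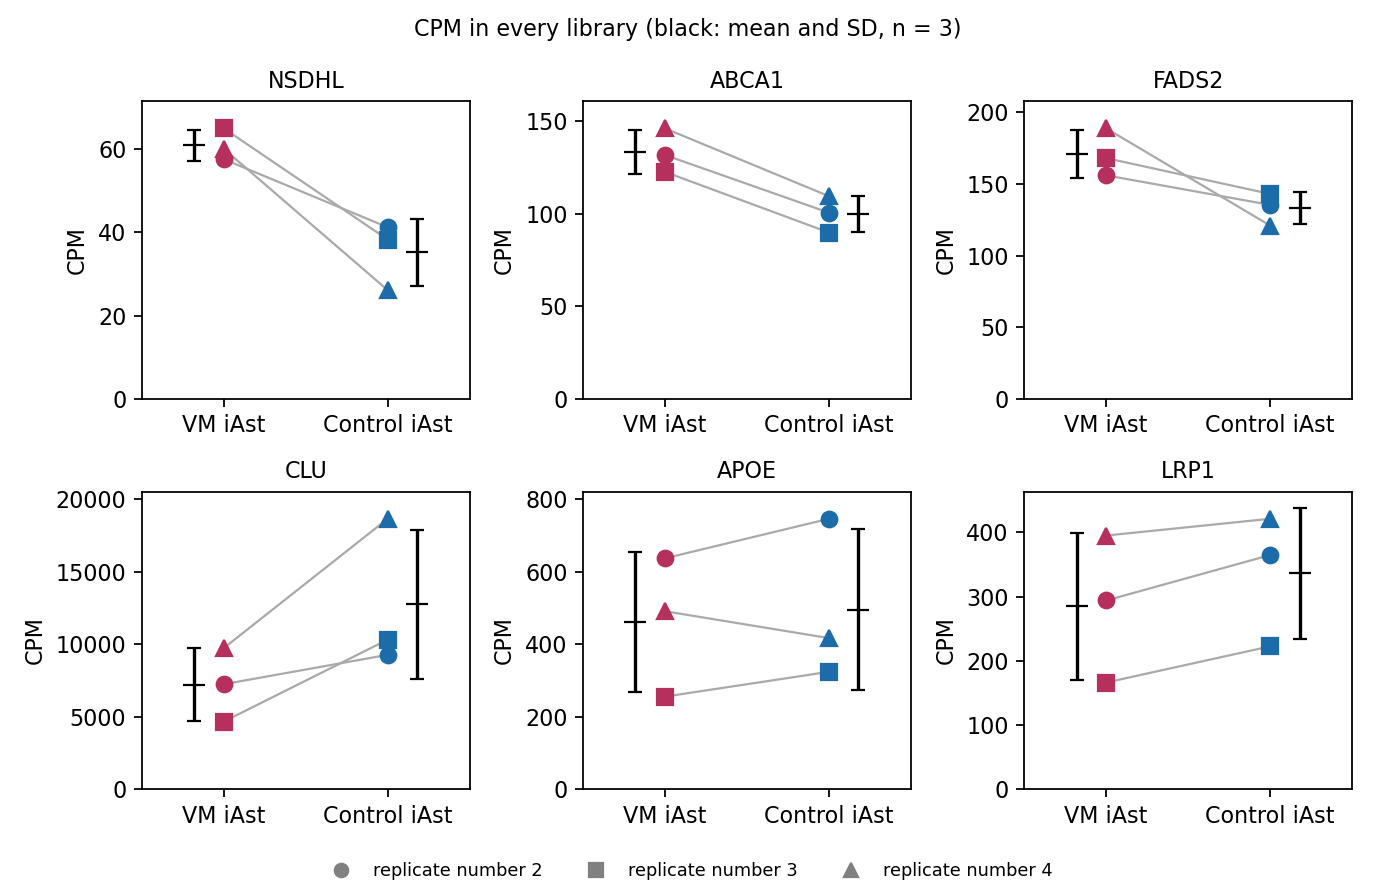
CPM of 6 members in every library (vertical axis from 0, VM iAst left of Control iAst, one marker shape per replicate number, grey lines joining libraries of the same number, black bars showing mean and SD of 3 libraries). All VM iAst points of NSDHL, ABCA1 and FADS2 lie above the Control iAst points, CLU is lower in VM iAst in each joined pair, and APOE and LRP1 differ more between replicate numbers than between groups.

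The liver X receptors themselves were not called. NR1H2, which encodes the widely expressed LXR-beta, was at 16.2, 12.6 and 14.5 CPM in VM iAst and 14.2, 15.0 and 13.8 CPM in Control iAst libraries (log2 fold change 0.01 ± 0.21, SE; edgeR adjusted p = 0.99). NR1H3, which encodes LXR-alpha, was at 5.85, 6.43 and 6.52 CPM in VM iAst and 8.27, 7.10 and 13.1 CPM in Control iAst libraries. Every VM iAst library of NR1H3 was below every Control iAst library, the opposite side from ABCA1 and ABCG1 (log2 fold change -0.60 ± 0.31, SE; 95% interval -1.28 to 0.08; edgeR adjusted p = 0.50, blocked 0.31).

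Differences between replicate numbers were as large as those between groups for many members. Libraries numbered 3 were set against the mean of numbers 2 and 4 within each group, a description chosen after the values were seen and given without a test. For 17 of 37 members (45.9%) this deviation, averaged over the groups, was larger than the log2 fold change between groups, against 49.1% of all tested genes. Number 3 deviated in the same direction in both groups for 22 of the 37 members, 12 upward and 10 downward, against 63.5% of all tested genes. Among these 22, the strongest mean downward deviations were those of APOE, at -1.13 in VM iAst and -0.78 in Control iAst libraries on the log2(CPM + 0.5) scale, and of LRP1, at -1.03 in VM iAst and -0.82 in Control iAst libraries. CLU, at -0.85 in VM iAst and -0.35 in Control iAst libraries, also went down. Upward mean deviations were led by MVK, at 0.75 in VM iAst and 0.59 in Control iAst libraries, EBP, at 0.87 in VM iAst and 0.33 in Control iAst libraries, and FDPS, at 0.51 in VM iAst and 0.60 in Control iAst libraries. Of the 5 lipoprotein and efflux genes, 4 were lower in number 3 of both groups, and of the 16 sterol enzymes 7 were higher and 4 lower in both. Over all 15984 tested genes, 5129 were higher and 5017 lower in number 3 of both groups. The summed proliferation markers were highest in these same libraries, and their part in the deviations was not tested.

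**Figure D4:**
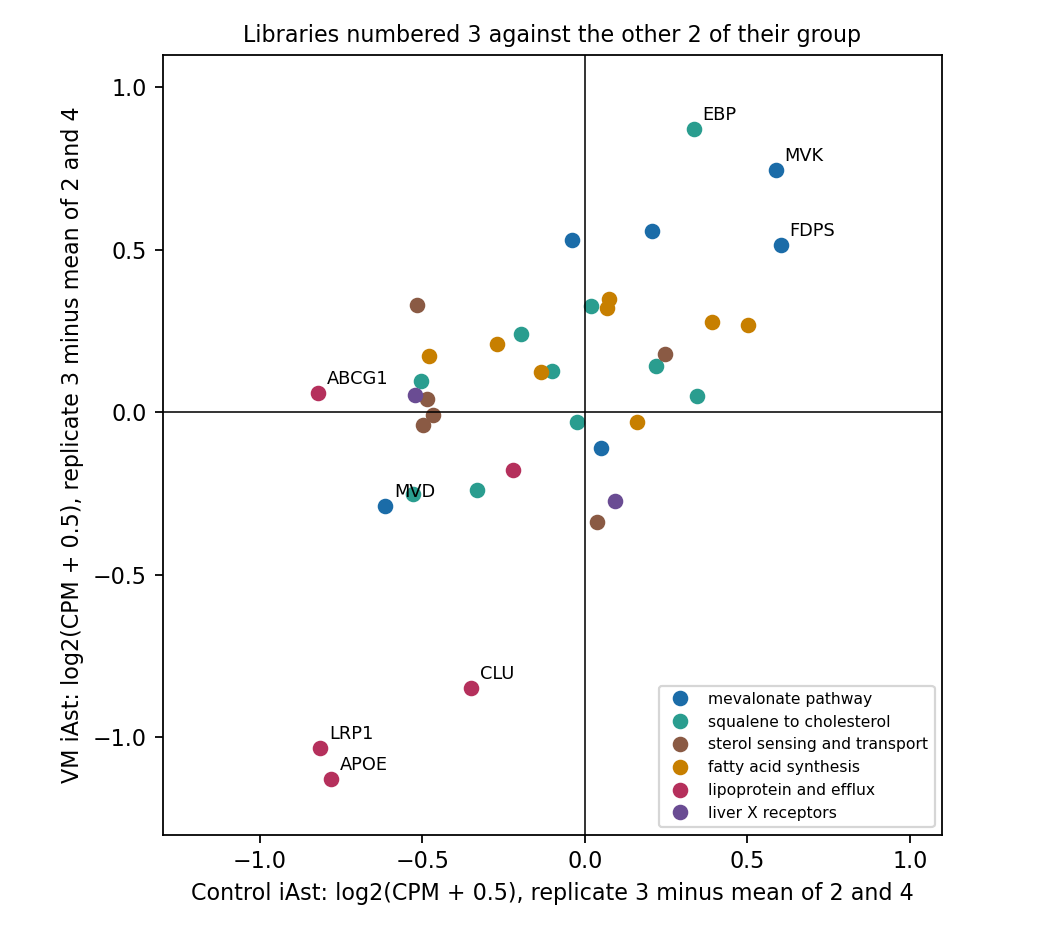
Deviation of the library numbered 3 from the mean of numbers 2 and 4 on the log2(CPM + 0.5) scale, in VM iAst (vertical axis) and in Control iAst (horizontal axis), one point per gene, coloured by role group. APOE, LRP1 and CLU lie in the lower left, at -1.13, -1.03 and -0.85 in VM iAst, and EBP, MVK and FDPS in the upper right.

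Beyond the 37, 88 genes of the same pathways were listed, of which 85 were tested, and 0 were called by edgeR. An unadjusted p under 0.05 was found for 14 (16.5%, against 12% of all tested genes), and DESeq2 called 3 (all lower, PLTP and PLIN3 among them), where it called 4.2% of all genes it tested, and limma voom called 0. With the replicate block 1 rose and 13 fell in VM iAst libraries, or 16.5%, against 8.13% of all tested genes. The lists were chosen with earlier results of these data known, so no conclusion is drawn from a share above the background. In sterol synthesis POR, the electron donor of CYP51A1 and SQLE, rose in that fit, at 113, 96.8 and 117 CPM in VM iAst and 79.1, 62.5 and 83.3 CPM in Control iAst libraries (edgeR adjusted p = 0.15, and 0.0096 with the block). RNF145, a sterol-sensing ubiquitin ligase, was at 254, 269.9 and 259.8 CPM in VM iAst and 325, 345 and 348 CPM in Control iAst libraries (edgeR adjusted p = 0.0495 with the block).

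Of 25 tested genes of lipoproteins and sterol transport, 6 fell with the block (24%) and 0 rose, where 4.5% of all tested genes fell and 3.63% rose. Without the block edgeR called 0 of the 25, and the choice of the list with earlier results known limits what its share can show. The part of the marker differences between the groups in these genes was not tested. PLTP, the phospholipid transfer protein, was at 182, 139 and 178 CPM in VM iAst and 325, 213 and 307 CPM in Control iAst libraries (edgeR adjusted p = 0.080, and 0.000902 with the block). The apolipoprotein gene APOC1, the lysosomal sterol carrier NPC2, the receptor SCARB1, the receptor chaperone LRPAP1 and RXRA, the partner of the liver X receptors, were the other 5, with blocked log2 fold changes from -0.87 for APOC1 to -0.54 for RXRA. Under the same limit, of 21 tested genes of fatty acid binding, storage and oxidation, 5 fell with the block (23.8%) and 0 rose, against the same 4.5% and 3.63%. They were the lipid droplet coats PLIN2 and PLIN3, the droplet lipase PNPLA2, CPT1A, which admits fatty acids to mitochondria, and the carrier FABP5. PLIN3 was at 124, 123 and 124 CPM in VM iAst and 171, 174 and 205 CPM in Control iAst libraries (edgeR adjusted p = 0.076, and 0.0074 with the block). HADHA, the highest of that list, was at 357, 258 and 327 CPM in VM iAst and 347, 299 and 379 CPM in Control iAst libraries. In the remaining fatty acid synthesis list 0 of 19 passed either fit, and HACD3, a dehydratase of elongation, had the smallest p there, at 417, 535 and 437 CPM in VM iAst and 331, 349 and 387 CPM in Control iAst libraries (edgeR adjusted p = 0.36).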

How the data were processed

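Per the labels' protocols, libraries were made with a QuantSeq kit that reads transcript 3′ ends. Salmon, DESeq2 1.27.12 and the build GRCh38.p13 were used, per the submitters' processing notes. The authors deposited estimated counts per transcript, TPM (not used for tests) and effective lengths (used for an offset), and a table of normalized signal for 21509 genes. Dividing the deposited estimated counts by library and length factors gave that signal, to within 0.01 in natural log units, in 96.7% of the 12396 genes that could be compared.

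Estimated counts were summed per gene with GENCODE 29 (90.6% of 226608 transcripts matched by identifier, leaving 0.992% to 1.12% of reads out) and rounded. edgeR 4.0.16 (filterByExpr, TMM, robust quasi-likelihood, R 4.3.3) tested VM iAst over Control iAst with p adjusted over 15984 genes. SEs were derived from the fold change and its F statistic. Alternatives used limma 3.58.1 and DESeq2 1.42.0. The sources used here do not say whether counting used strand. Intervals are for the spread between libraries.

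Replicate numbers: deviations from the group means correlated at 0.277, 0.409 and 0.250 between same-numbered libraries and at most 0.0341 between others. These correlations depend on each other, and no label says what a number shares. Since all 3 exceed 0.1, the blocked value is given where it changes a call.

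The members and gene lists were chosen with earlier results of these data known. Members past the test with or without the block or at an unadjusted p under 0.05, the highest member of each role group and up to 3 more by p have every library's value. Figures were drawn with matplotlib 3.10.9. 1 gene of the wider pathway lists is counted but not reported here.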

Additional observations from a re-analysis of the deposited data

How the results depend on the processing

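With 3 libraries per group and a common biological coefficient of variation of 0.309, 0 calls do not show equal levels. Against 344 genes called, edgeR called 1012 without a filter on low counts and 174 with a gene-length offset, DESeq2 728, limma 182 on the deposited normalized values, and edgeR with the replicate block 1300 (DESeq2 with it 1247). Among members, calls were 1 higher and 1 lower without the filter (NSDHL and CLU), 1 higher with DESeq2, 2 higher and 1 lower with the replicate block, and 2 higher with DESeq2 and the block. The block changed no other member's call. Among the other pathway genes, 6 were lower without the filter, 3 lower with DESeq2, 1 higher and 13 lower with the block, and 2 higher and 12 lower with DESeq2 and the block.

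Leaving out 1 library gave 131 to 258 genes, 0 members in either direction, and 0 higher and 0 to 1 lower other pathway genes. The blocked fits without number 2, 3 or 4, chosen like DESeq2 with the block after seeing the data, gave 910, 853 and 762 genes, 1 member higher in each, 1, 2 and 0 members lower, 2, 0 and 2 other pathway genes higher and 7, 6 and 6 lower.

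Of 703 log2 fold changes of members over 19 alternatives, 647 kept their sign, and 21 of the 37 members kept it throughout. Signs turned with the gene-length offset for HMGCS1 (0.0019), MVD (-0.55), STARD4 (-0.25), FADS1 (0.084), ELOVL6 (0.034) and NR1H2 (-0.015), and on the deposited values for MVD (-0.44), STARD4 (-0.19), FADS1 (0.057), ELOVL6 (0.023) and NR1H2 (-0.041). FADS1 turned to 0.00055 without the filter and NR1H2 to -0.0033 with DESeq2 and the block. ACACA turned to -0.0074 with RLE scaling, -0.00036 with a filter of 2 CPM in 3 libraries, -0.0072 with DESeq2 and -0.0054 with DESeq2 and the block. With 1 library left out, ranges that crossed 0 were -0.31 to 0.22 for MVK, -0.082 to 0.30 for MVD, -0.31 to 0.11 for FDPS, -0.15 to 0.75 for HSD17B7, -0.12 to 0.059 for DHCR7, -0.11 to 0.24 for STARD4, -0.13 to 0.14 for ACACA, -0.14 to 0.031 for FASN, -0.46 to 0.027 for SCD, -0.13 to 0.10 for FADS1, -0.31 to 0.020 for ELOVL6, -0.41 to 0.32 for APOE, -0.55 to 0.036 for LRP1 and -0.084 to 0.10 for NR1H2. In the blocked fits with 1 number left out, signs turned for MVK (0.12), MVD (-0.021) and FASN (0.0050) without number 2, for STARD4 (-0.13) and APOE (0.0050) without number 3, and for SQLE (0.014), DHCR7 (0.050), ACACA (-0.19) and FASN (0.034) without number 4. FADS1 (0.044) and NR1H2 (-0.095) turned without number 2, and NR1H2 (-0.025) also without number 4. The cause of these turns was not tested.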
